A study of Mus musculus with 4 samples.

Results

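Immediate early genes and genes of the cAMP response were followed in single-cell RNA data from mouse mammary tumours. The set holds 39 genes chosen by symbol, and all 39 were found among the 31053 mouse features. The tumours grew from H605, a HER2-positive line of mammary tumour cells that was injected into a mammary pad of FVB/NJ mice aged 6 to 8 weeks. The 2 groups were wild-type (WT) hosts and IL1α-/- hosts, with 2 tumours each, all collected on day 14. The genotype is that of the host, and the same line was injected in both groups. The title of the series names host interleukin 1α and the step from monocyte to macrophage as its subject. Every tumour was digested with collagenase IV and hyaluronidase for 45 min at 37 °C and enriched for live cells before droplet libraries were made. Per the labels, tumours were taken as pairs on different days, but which tumours formed a pair is not said.

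Immediate early genes are transcribed soon after a stimulus, before new protein is made, by factors already present in the cell. Serum response factor acts at CArG boxes below MAP kinase signalling, and CREB acts at cAMP response elements (CREs) below protein kinase A. The products include the AP-1, EGR and NR4A transcription factors and feedback genes that end the response: the DUSP phosphatases act on MAP kinases, ZFP36 and BTG/TOB proteins shorten the life of mRNAs, and Crem, Sik1 and the PDE4 enzymes limit cAMP signalling. The same genes are known to be induced while a tissue is dissociated by warm enzymes, and how far that step contributed here was not tested.

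Promoters are shown for 6 members whose values follow: the 3 NR4A genes, Dusp5 and Tob1, which were higher in IL1α-/- tumours in at least 1 cell class, and Jun, which was lower in 2 of the 4 main classes. Each window holds 300 bases, from 250 before to 50 after the start site, 5′ to 3′ on the strand of the gene, from RefSeq on GRCm38.p6, in which 30 of the 39 members had an entry. Capitals mark the CRE core TGACG on either strand (CGTCA) and CArG boxes.
Nr4a1 (chr15:101266596-101266895, + strand): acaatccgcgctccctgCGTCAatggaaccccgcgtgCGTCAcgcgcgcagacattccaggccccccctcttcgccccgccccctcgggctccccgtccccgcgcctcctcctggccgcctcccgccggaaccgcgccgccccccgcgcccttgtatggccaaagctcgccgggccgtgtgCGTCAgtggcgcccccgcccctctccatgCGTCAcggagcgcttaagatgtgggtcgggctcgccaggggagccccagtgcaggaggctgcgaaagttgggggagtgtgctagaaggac
Nr4a2 (chr2:57123954-57124253, - strand): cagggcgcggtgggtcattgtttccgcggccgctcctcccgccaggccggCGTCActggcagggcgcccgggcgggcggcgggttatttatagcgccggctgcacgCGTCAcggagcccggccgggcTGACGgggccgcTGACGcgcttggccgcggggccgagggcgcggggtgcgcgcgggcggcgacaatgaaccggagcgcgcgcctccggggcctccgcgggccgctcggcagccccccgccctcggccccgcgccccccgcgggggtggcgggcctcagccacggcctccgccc
Nr4a3 (chr4:48045055-48045354, + strand): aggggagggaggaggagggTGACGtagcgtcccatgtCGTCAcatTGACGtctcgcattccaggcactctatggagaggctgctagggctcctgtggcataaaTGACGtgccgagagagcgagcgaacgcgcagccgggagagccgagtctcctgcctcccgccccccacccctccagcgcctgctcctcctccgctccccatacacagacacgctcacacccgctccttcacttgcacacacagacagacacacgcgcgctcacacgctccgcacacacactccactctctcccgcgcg
Dusp5 (chr19:53528895-53529194, + strand): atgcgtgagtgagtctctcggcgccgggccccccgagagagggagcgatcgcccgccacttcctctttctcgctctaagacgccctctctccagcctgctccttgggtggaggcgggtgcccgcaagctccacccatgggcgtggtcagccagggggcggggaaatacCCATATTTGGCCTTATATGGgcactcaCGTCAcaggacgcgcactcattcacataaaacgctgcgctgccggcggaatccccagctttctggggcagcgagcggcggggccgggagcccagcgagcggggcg
Tob1 (chr11:94211204-94211503, + strand): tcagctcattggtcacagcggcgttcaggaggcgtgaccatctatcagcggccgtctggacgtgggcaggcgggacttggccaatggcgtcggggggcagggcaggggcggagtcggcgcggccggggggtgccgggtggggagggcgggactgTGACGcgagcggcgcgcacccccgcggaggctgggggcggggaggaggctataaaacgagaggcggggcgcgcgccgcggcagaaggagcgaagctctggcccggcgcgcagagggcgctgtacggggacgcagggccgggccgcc
Jun (chr4:95052173-95052472, - strand): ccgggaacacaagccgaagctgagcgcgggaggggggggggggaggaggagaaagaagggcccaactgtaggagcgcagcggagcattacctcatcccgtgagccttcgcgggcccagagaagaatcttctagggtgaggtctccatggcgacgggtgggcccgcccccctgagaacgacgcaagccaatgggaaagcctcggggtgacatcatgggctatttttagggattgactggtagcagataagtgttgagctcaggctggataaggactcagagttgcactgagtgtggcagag

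The CRE core occurred 4 times in the window of each NR4A gene, 1 time in those of Dusp5 and Tob1, and not in that of Jun. The Dusp5 window also held 2 CArG boxes. Members not printed did not follow this split. Fosl2 and Pde4d, which rose in T/NK-like cells, had no core in their windows. A core did occur for Egr2, Klf2 and Dusp2, which fell in T/NK-like, CD8 T-like and NK-like cells, in that order. Whether the core goes with the direction of change was not tested. No window was available for Crem, Sik1, Myc, Egr1, Egr3, Rgs1, Ier2, Dusp4 and Fosl1. Among members with a window, 19 of 30 (63.3%) had at least 1 CRE core, against 23.05% of the 27025 genes in the table. The complete palindrome TGACGTCA, which contains the core on both strands, occurred in Btg2, Dusp1 and Maff (10% of members, 2.03% of genes). A CArG box occurred in Dusp5, Egr2 and Zfp36 (10% of members, 1.81% of genes). The AP-1 site TGANTCA occurred only in Zfp36l1 among the members (3.33%, against 8.97% of genes). A match describes these letters in this window and does not show that a factor was bound.

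The libraries held 23464120 and 29001333 UMIs (unique molecular identifiers) from the WT tumours, and 6705368 and 15298532 from the IL1α-/- tumours, replicate 1 before replicate 2 here and in all pairs of values below. Called cells numbered 3873, 3878, 3130 and 3246 in the same order of tumours, with a median of 3093, 4160, 1348 and 2883.5 UMIs per cell. The targeted gene, Il1a, had 65 and 109 UMIs in the called cells of the WT tumours against 1 and 0 in the IL1α-/- tumours. The median share of mitochondrial UMIs was 3.26% and 3.32% in WT and 2.29% and 2.44% in IL1α-/- tumours. Depth and mitochondrial share thus moved with the genotype. Per-cell values are given at equal depth, and the summed counts were tested again with cells thinned to 1000 UMIs, with at least 1000 UMIs per cell and with at most 10% mitochondrial UMIs. Of the single-member values under these settings, 47 of 87, 6 of 85 and 9 of 85 lost their call, and thinning leaves fewer counts. Any pair of libraries shared at most 5 called barcodes.

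Cells were assigned to classes by 8 marker genes each, none of which is a member of the set. The T/NK-like class, T cells and natural killer cells together, held 2157, 2248, 2232 and 2268 cells. Mononuclear phagocyte-like cells numbered 399, 673, 157 and 379, fibroblast-like cells 349, 214, 286 and 257, and plasmacytoid dendritic-like cells (pDC-like) 158, 85, 89 and 69. Within the T/NK-like class, CD8 T-like cells numbered 145, 268, 841 and 813, CD4 T-like cells 343, 400, 108 and 298, and NK-like cells 725, 702, 461 and 356. The CD8 share of the lymphocytes was thus higher in both IL1α-/- tumours, so the subsets were tested apart as well. UMIs were summed per tumour and class, and levels are given in CPM, the count of a gene scaled to a total of 1000000 UMIs. A sum over a class cannot tell fewer expressing cells from less RNA per cell.

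Many members differed in level between T/NK-like cells and the other main classes. Those other classes were not tested against each other. In phagocyte-like cells 17 of 38 tested members were higher than in T/NK-like cells and 11 were lower (edgeR, adjusted p under 0.05, all 4 tumours), against 29.8% and 31.3% of all genes. In fibroblast-like cells 15 were higher and 16 lower, against 35.2% and 35.1% of genes. In pDC-like cells 7 were higher and 23 lower, against 22.7% and 28.2% of genes. Most genes differ in level between such classes, and the 23 lower members of pDC-like cells lay furthest from the share of all genes.

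Atf3, a stress-induced partner of AP-1 proteins, was 5.05 (log2) higher in phagocyte-like and 5.03 higher in fibroblast-like than in T/NK-like cells. Fos was 3.08 and 3.98 higher and Zfp36, which marks AU-rich mRNAs for decay, 3.24 and 2.99 higher in these 2 classes. Egr1 was 4.44 and Jun 4.46 higher in fibroblast-like cells. The lymphocytes led for Dusp2, Dusp4 and Dusp5: Dusp5 was lower by -2.35 in phagocyte-like and by -5.51 in fibroblast-like cells. Rgs1, which shortens signalling of G protein coupled receptors, was lower by -7.28 in fibroblast-like cells. In pDC-like cells Sik1 was 1.57 higher and Dusp1 lower by -3.64. Adjusted p was at most 5.6e-05 for each of the values in this paragraph.

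Summed over the 39 members, both IL1α-/- tumours lay above both WT tumours in each of the 4 classes. In T/NK-like cells the sum was 10517 and 7294 CPM in WT and 13869 and 13369 CPM in IL1α-/- tumours. In phagocyte-like cells it was 11559 and 8870 CPM against 16469 and 18591 CPM, and in fibroblast-like cells 13000 and 9405 CPM against 20975 and 21902 CPM. In pDC-like cells the groups were closest, with 7801 and 5028 CPM against 8628 and 9428 CPM. The groups did not overlap in any of these classes, and WT replicate 2 was the lowest tumour in all of them. Since the classes come from the same 4 libraries, a difference between libraries would reach all of them.

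**Figure D1:**
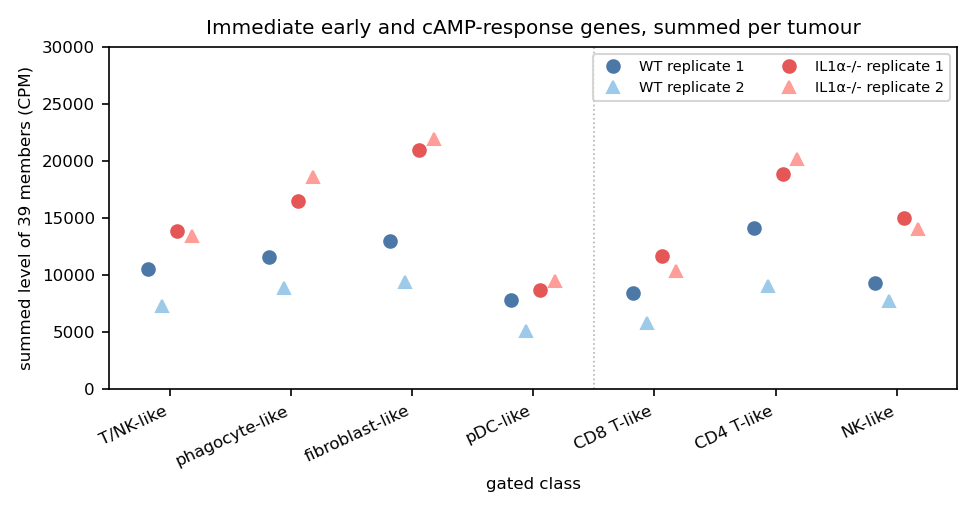
Summed level of the 39 members (CPM, y axis from 0) per tumour in the 4 main classes and, right of the dotted line, in 3 lymphocyte subsets. Each point is 1 tumour, blue for WT and red for IL1α-/- hosts; both red points lie above both blue points in all 7 classes.

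The same order was seen in the subsets. The sum was 8386 and 5786 CPM in WT and 11618 and 10348 CPM in IL1α-/- tumours for CD8 T-like cells, and 14089 and 9025 CPM against 18825 and 20123 CPM for CD4 T-like cells. For NK-like cells it was 9272 and 7669 CPM against 14943 and 13973 CPM. Free RNA, taken from barcodes with at most 100 UMIs, showed the difference too, with 7972 and 6188 CPM in WT and 11989 and 16906 CPM in IL1α-/- libraries. How much free RNA added to the sums within the classes was not tested.

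Single cells gave the same order once their depth was made equal. With every cell thinned to 1000 UMIs, the median T/NK-like cell held 6 and 5 detected members in WT and 8 and 8 in IL1α-/- tumours. The medians were 7 and 5 against 10 and 11 in phagocyte-like cells, 6 and 4 against 10 and 11 in fibroblast-like cells, and 4 and 3 against 5 and 6 in pDC-like cells. Without thinning the groups overlapped, with 12, 11, 10 and 14 members in T/NK-like cells and 15, 12, 14 and 20 in phagocyte-like cells. Thinning left out 54, 54, 618 and 101 T/NK-like cells that had fewer UMIs, mostly from the shallow library of IL1α-/- replicate 1.

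In T/NK-like cells 38 of the 39 members were tested; Fosl1 had too few counts in every class. Of these, 13 (34.2%) rose in IL1α-/- tumours and 3 fell, against 3.22% and 2.22% of all genes tested. The median log2 fold change of the tested members was 0.50, and that of all genes was -0.02. The groups did not overlap, IL1α-/- above WT, for 25 of the 38 members, against 27.7% of all genes. Leaving out WT replicate 2 reduced the members called higher from 13 to 2. The number of all genes called also varied with the tumour left out. P-values measure the spread between these tumours, 2 per group, and each value below comes from edgeR with Benjamini-Hochberg adjustment over all genes.

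Of the 6 members grouped under the cAMP response and RGS proteins, 5 rose. Pde4d, an enzyme that degrades cAMP, had 28 and 24.9 CPM in WT and 84.1 and 79.4 CPM in IL1α-/- tumours (log2 fold change 1.63, SE 0.15, adjusted p = 0.00437). Sik1, a kinase that holds back CREB coactivators (chromosome 17 from 31844250 to 31855804), had 46.4 and 36.7 CPM against 124 and 118 CPM (1.55, SE 0.17, adjusted p = 0.00672). Crem, which gives rise to CRE-binding activators and repressors, had 149 and 104 CPM against 379 and 293 CPM (1.41, SE 0.22, adjusted p = 0.0166). For these 3 genes both IL1α-/- tumours stood well apart from both WT tumours. Pde4b had 68 and 58.4 CPM against 100 and 152 CPM (1.01, adjusted p = 0.0371), and Rgs2, a regulator of G protein signalling, 268 and 150 CPM against 427 and 479 CPM (1.12, adjusted p = 0.0481). Rgs1 had 948 and 667 CPM against 1051 and 1365 CPM and did not pass (0.58, adjusted p = 0.159). Pde4d and Sik1 were the 2 members still called higher without WT replicate 2; Crem then had 1.16 (adjusted p = 0.1).

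Among AP-1 genes, the FOS family genes Fosl2 and Fosb rose and Jun fell. Fosl2 had 262 and 181 CPM in WT and 707 and 544 CPM in IL1α-/- tumours (1.50, SE 0.23, adjusted p = 0.015), and Fosb 118 and 79.7 CPM against 256 and 211 CPM (1.24, adjusted p = 0.0233). Jun had 100 and 67 CPM against 38.7 and 37.6 CPM (-1.13, SE 0.21, adjusted p = 0.0261), with both IL1α-/- tumours below both WT tumours. Atf3, a rare transcript here, had 8.52 and 10.5 CPM against 17.5 and 24.8 CPM (1.17, adjusted p = 0.031). The abundant Junb had 1834 and 1164 CPM against 2126 and 2288 CPM (0.56, adjusted p = 0.185), Jund 737 and 783 CPM against 864 and 854 CPM (0.18, adjusted p = 0.54), and Fos, whose groups overlapped, 166 and 94.1 CPM against 160 and 188 CPM (0.42, adjusted p = 0.341). Without WT replicate 1 the fall of Jun was -0.81 and did not pass (adjusted p = 0.107).

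The EGR and NR4A factors divided by gene. Nr4a2 had 241 and 175 CPM in WT and 540 and 437 CPM in IL1α-/- tumours (1.23, SE 0.21, adjusted p = 0.0207), and Nr4a3 190 and 133 CPM against 394 and 356 CPM (1.21, SE 0.21, adjusted p = 0.0207). Nr4a1 had 182 and 109 CPM against 221 and 233 CPM and did not pass (0.64, adjusted p = 0.145). Egr1 rose, with 92.8 and 68.8 CPM against 135 and 163 CPM (0.89, adjusted p = 0.0403). Egr2 fell, with 12.4 and 19.3 CPM against 4.95 and 6.8 CPM (-1.39, SE 0.30, adjusted p = 0.0368), and Egr3, with 28.4 and 30.4 CPM against 13.7 and 20.1 CPM, did not pass (-0.76, adjusted p = 0.0733). All 3 EGR genes had groups that did not overlap, Egr1 upward and the other two downward.

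Of the feedback genes, Dusp5, a phosphatase of nuclear ERK, rose from 367 and 241 CPM in WT to 801 and 720 CPM in IL1α-/- tumours (1.32, SE 0.23, adjusted p = 0.0206). Dusp1, Dusp2, Dusp4 and Dusp6 did not pass; Dusp1 had 406 and 161 CPM against 311 and 330 CPM (0.18, adjusted p = 0.787). Tob1, an antiproliferative adaptor of mRNA deadenylation, rose from 45.5 and 27.3 CPM to 73.3 and 85.2 CPM (1.14, adjusted p = 0.035). Btg1 was high in all tumours, with 1543 and 922 CPM against 2571 and 1641 CPM (0.77, adjusted p = 0.154). Zfp36l1 had 474 and 306 CPM against 436 and 345 CPM, a fold change of 0.00 (adjusted p = 0.998), and Zfp36 121 and 76.9 CPM against 103 and 82.4 CPM (-0.10, adjusted p = 0.828). The groups overlapped for both ZFP36 genes.

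Myc, a growth regulator, fell more than any other member in these cells, from 39.1 and 33.7 CPM in WT to 12.2 and 10.8 CPM in IL1α-/- tumours (-1.68, SE 0.19, adjusted p = 0.00672). Klf2, which maintains quiescence and homing in T cells, had 149 and 92.3 CPM against 73 and 86.5 CPM and did not pass (-0.59, adjusted p = 0.168). Myc, Sik1 and Pde4d were called under every alternative run in this class. Marker lists of other classes moved with the genotype within the T/NK-like gate. Markers of pDC summed to 132 and 109 CPM in WT and 245 and 186 CPM in IL1α-/- tumours, with Siglech and Klk1 at 0 in both IL1α-/- tumours. Phagocyte markers summed to 135 and 118 CPM against 174 and 153 CPM, where the phagocyte-like gate itself had 8426 to 11645 CPM. B/plasma markers went from 142 and 124 to 55 and 45.7 CPM, and tumour epithelial markers from 80.8 and 71 to 41.9 and 15.2 CPM. Neutrophil markers overlapped, at 39.7, 7.99, 11.1 and 17.8 CPM. The part of such RNA in the results was not tested.

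The 3 lymphocyte subsets differed in how many members passed. In NK-like cells 21 of 37 tested members (56.8%) rose and 5 fell, against 8.91% and 7.74% of all genes. In CD4 T-like cells 15 of 38 (39.5%) rose and 0 fell, against 2.5% and 0.948% of genes; 2 members had an unadjusted p under 0.05 for a fall, against 8.9% of genes, and DESeq2 also called 0. In CD8 T-like cells 8 of 38 (21.1%) rose and 2 fell, against 1.16% and 1.25% of genes. These counts do not show a difference between the subsets, which was not tested. The number of all genes called in the subsets also varied with the tumour left out. Leaving out WT replicate 2 gave 9 members higher in NK-like cells and 0 in CD8 T-like cells, leaving out IL1α-/- replicate 2 gave 7 in CD4 T-like cells, and leaving out WT replicate 1 gave 0 in CD8 T-like cells.

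Fosl2, Sik1, Crem, Dusp5, Nr4a2 and Pde4d were called higher in each subset. Fosl2 had 173 and 104 CPM in WT and 570 and 339 CPM in IL1α-/- tumours in CD8 T-like cells (1.74, adjusted p = 0.0201), and 289 and 173 CPM against 902 and 845 CPM in CD4 T-like cells (1.92, adjusted p = 0.00312). In NK-like cells it had 303 and 239 CPM against 911 and 792 CPM (1.65, adjusted p = 7.55e-07). The fold change of Sik1 was 1.69, 1.68 and 1.42 in CD8 T-like, CD4 T-like and NK-like cells, that of Crem 1.68, 1.57 and 1.69, and that of Dusp5 1.55, 1.38 and 1.41. Nr4a2 had 1.40, 1.60 and 1.30. Pde4d rose by 1.60, 1.31 and 1.86 in the same order.

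Other members passed in some subsets only. Fosb rose by 1.92 in CD8 T-like and by 1.68 in CD4 T-like cells, and had 0.40 in NK-like cells without passing. Tob1 rose from 29.3 and 17.2 to 105 and 119 CPM in CD4 T-like cells (2.36, SE 0.29, adjusted p = 0.00293) and by 1.47 in NK-like cells. Nr4a3 rose by 1.68 and 1.45, Nr4a1 by 1.16 and 0.73, Rgs2 by 1.12 and 0.98, Atf3 by 1.58 and 1.59, and Pde4b by 1.88 and 0.70 in CD4 T-like and NK-like cells. Egr1 (1.68) and Maff (1.93), a small partner of AP-1 proteins, rose in CD4 T-like cells. Rgs1 rose in CD8 T-like (1.07) and NK-like cells (0.62). Atf3 in CD4 T-like cells rested on IL1α-/- replicate 2, with 15.4 and 21.8 CPM against 19.8 and 68.4 CPM, and without that tumour it had -0.0027.

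In NK-like cells the members that rose further included the abundant Junb (0.82), Btg1 (1.05) and Ier2 (0.74), as well as Klf4 (1.06), Zfp36l1 (0.81), Fos (0.83), Dusp1 (0.67) and Ier3 (1.30). Of the alternative settings run, Ier3 kept its call in 5 of 13 and Dusp1 in 7 of 14, and the others listed here in at least 11 of 14. Atf3 in these cells kept its call in 7 of 12. Jun fell from 112 and 70 to 50.2 and 42.6 CPM (-0.98, adjusted p = 0.00862), and Dusp2, a lymphocyte phosphatase, from 410 and 368 to 294 and 215 CPM (-0.63, adjusted p = 0.0146). Egr2 (-1.61) and Egr3 (-1.71) fell on few counts, with 2 and 4 Egr2 UMIs and 2 and 11 Egr3 UMIs in the IL1α-/- tumours. Myc fell from 54.6 and 39 to 17.3 and 4.48 CPM (-2.27, adjusted p = 3.53e-04). In CD8 T-like cells Myc fell from 34.9 and 26.5 to 8.77 and 8.25 CPM (-1.81, adjusted p = 0.0266) and Klf2 from 189 and 107 to 25.7 and 42.9 CPM (-2.03, SE 0.33, adjusted p = 0.0112). Neither call in CD8 T-like cells held without WT replicate 1 (adjusted p = 0.201 for Myc and 0.173 for Klf2).

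In phagocyte-like cells 37 members were tested and 2 rose, Tob1 and Sik1, while 0 fell, against 0.0785% and 0.0224% of all genes. Tob1 had 21.4 and 18.1 CPM in WT and 92.1 and 84.7 CPM in IL1α-/- tumours (2.16, SE 0.24, adjusted p = 0.0225). Sik1 had 32.5 and 33.3 CPM against 123 and 116 CPM (1.85, SE 0.22, adjusted p = 0.0343). For both genes the 2 tumours of a group lay close together and the groups far apart. The median over the tested members was 0.95, against -0.02 for all genes, 33 of the 37 were positive, and 23 had an unadjusted p under 0.05 for a rise and 0 for a fall, against 7.84% and 5.58% of genes. The IL1α-/- tumours were both above the WT tumours for 24 members, against 22.8% of all genes. The count of members called higher depended on the setting: it was 14 with DESeq2, 18 without the filter on low counts, 13 without WT replicate 2, 6 without IL1α-/- replicate 1, and 0 without WT replicate 1 or IL1α-/- replicate 2. DESeq2 called 0 lower. The number of all genes called changed with the setting too, from 9 in the main one to 524 without the filter. It was also higher with DESeq2 and varied with the tumour left out. The changes in count are thus not results about the members alone.

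Several members of this class had large fold changes that did not pass after adjustment. Crem had 41.2 and 44.1 CPM in WT and 92.1 and 224 CPM in IL1α-/- tumours (1.97, SE 0.36, adjusted p = 0.0684). Dusp5 had 53.9 and 37.6 CPM against 120 and 214 CPM (1.93, SE 0.32, adjusted p = 0.0578). Fosb had 253 and 192 CPM against 599 and 694 CPM (1.54, SE 0.23, adjusted p = 0.0563). In each of these the groups did not overlap. Egr1 had 128 and 143 CPM against 227 and 609 CPM (1.66, adjusted p = 0.125), Junb 1681 and 1243 CPM against 2140 and 2742 CPM (0.74, adjusted p = 0.258), and Btg1 683 and 581 CPM against 1566 and 1507 CPM (1.28, adjusted p = 0.0609). Fos had 1084 and 760 CPM against 1636 and 1383 CPM (0.71, adjusted p = 0.269), and Dusp1 651 and 434 CPM against 1247 and 1002 CPM (1.05, adjusted p = 0.14). Within this gate neutrophil markers summed to 111 and 82.9 CPM in WT and 79.5 and 60.6 CPM in IL1α-/- tumours, endothelial markers to 50.3 and 126 against 127 and 213 CPM, and B/plasma markers to 102 and 60.3 against 41.4 and 42.7 CPM. Their part in the results was not tested.

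Among the classes with enough cells for a test, fibroblast-like cells had the highest summed level in IL1α-/- tumours, and 0 of 36 tested members passed in either direction (edgeR), against 0% of genes both higher and lower. At an unadjusted p under 0.05, 15 members were higher and 0 lower, against 2.73% and 2.28% of genes, and DESeq2 called 1 higher and 0 lower. The median log2 fold change was 0.90, against -0.01 for all genes, and both IL1α-/- tumours were above both WT tumours for 23 members, against 18% of genes. Nr4a1 had 59.6 and 68.1 CPM in WT and 299 and 326 CPM in IL1α-/- tumours (2.29, SE 0.27, adjusted p = 0.444), with close replicates and groups far apart. Atf3 had 312 and 174 CPM against 686 and 853 CPM (1.66, adjusted p = 0.851), Fos 1498 and 1263 CPM against 3534 and 3111 CPM (1.27), and Dusp1 718 and 451 CPM against 1498 and 1334 CPM (1.28). Egr1 reached 3191 and 3622 CPM in IL1α-/- tumours against 2064 and 914 CPM in WT (1.19). Adjusted p was 0.851 for these 4 genes.

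The spread between replicates was wide for other members of the fibroblast-like class. Nr4a2 had 0.945 and 23.7 CPM in WT and 2.26 and 58.6 CPM in IL1α-/- tumours, so that replicate 2 was high and replicate 1 low in both groups. Gadd45b had 82.3 and 182 CPM against 57.5 and 177 CPM (-0.15), Ier3 156 and 269 CPM against 108 and 364 CPM (0.16), and Pde4b 2.84 and 11.5 CPM against 3.38 and 11.2 CPM (0.12). In these genes the replicates differed more than the groups. Fibroblast markers in the gate also varied, with 44574 and 73153 CPM in WT and 43299 and 69526 CPM in IL1α-/- tumours.

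In pDC-like cells 29 members were tested, 9 (31.0%) rose and 1 fell, against 2.05% and 0.588% of genes. The median was 0.71, against -0.00044 for all genes, and the IL1α-/- tumours were both above the WT tumours for 17 of the 29, against 23.4% of genes. Dusp5 had 218 and 184 CPM in WT and 536 and 620 CPM in IL1α-/- tumours (1.52, SE 0.20, adjusted p = 2.3e-04). Nr4a3 had 146 and 144 CPM against 303 and 374 CPM (1.23, SE 0.21, adjusted p = 0.00253), and Crem 118 and 68.4 CPM against 201 and 383 CPM (1.65, SE 0.29, adjusted p = 0.00253). Each of these had groups that did not overlap. Pde4b had 25.6 and 31.6 CPM against 70 and 133 CPM (1.91, adjusted p = 0.00571), and Sik1, at its highest level in this class, 176 and 151 CPM against 261 and 339 CPM (0.89, adjusted p = 0.0333). Nr4a1 (1.01), Fosb (1.23), Junb (1.21) and Fosl2 (1.39) rose as well, with adjusted p between 0.0172 and 0.0455. The number called higher was 4 with DESeq2, 4 without WT replicate 2 and 5 without IL1α-/- replicate 2; Junb had 0.31 (adjusted p = 0.691) in the last of these, against 374 and 228 CPM in WT and 387 and 986 CPM in IL1α-/- tumours as measured.

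Jun was the member that fell in pDC-like cells, from 559 and 319 CPM in WT to 126 and 60.9 CPM in IL1α-/- tumours (-2.32, SE 0.31, adjusted p = 2.4e-04). It was called under each alternative run, as was Dusp5. In the same cells Fos, its dimer partner, had 507 and 174 CPM against 415 and 545 CPM (0.49, adjusted p = 0.505), with groups that overlapped. Rgs1 had 346 and 70.1 CPM against 83.9 and 60.9 CPM (-1.60, adjusted p = 0.0921), so that WT replicate 1 stood apart from the other 3 tumours.

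The 4 classes come from the same 4 libraries and are thus not independent of each other, and their fold changes are given side by side. Of the 29 members tested in all 4 classes, 20 (69.0%) were positive in each, against 19.6% of genes. The other 9 were mixed, and 0 were negative in each, against 21.0% of genes. Of the 7 members tested in 3 classes, 1 (14.3%) was positive in each, against 17.9% of genes, and 6 were mixed. Members positive in each class included Sik1 (1.55, 1.85, 1.58 and 0.89 in T/NK-like, phagocyte-like, fibroblast-like and pDC-like cells), Crem (1.41, 1.97, 0.92 and 1.65) and Tob1 (1.14, 2.16, 1.44 and 1.24). Dusp5 (1.32, 1.93, 1.29 and 1.52) and Nr4a3 (1.21, 1.57, 2.68 and 1.23) belonged with them. The per-tumour plot shows that in these genes the 2 WT tumours lay low in each class.

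**Figure D2:**
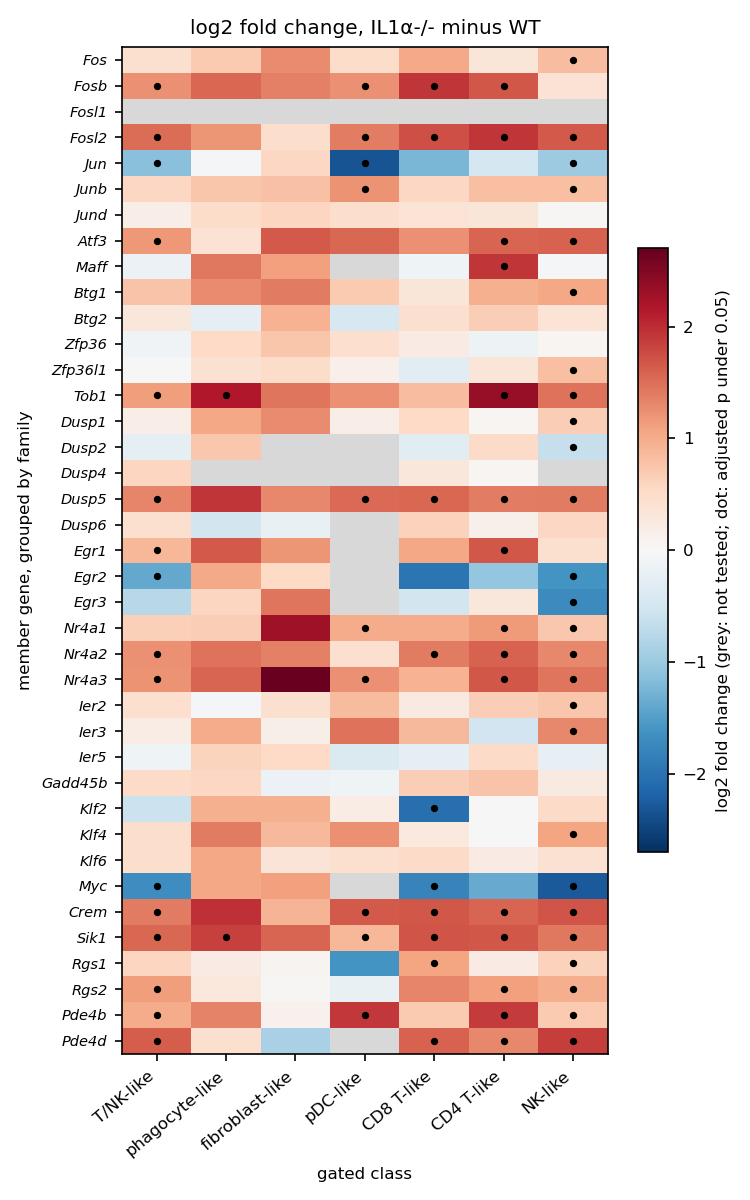
Log2 fold change, IL1α-/- minus WT, for each member (rows, by family) in 7 gated classes (columns), red for positive and blue for negative; grey cells were not tested and a dot marks an adjusted p under 0.05 (edgeR). Fosb, Fosl2, Dusp5, Crem, Sik1, Tob1 and the NR4A genes are red in every class, and Jun, Egr2, Egr3 and Myc are blue in T/NK-like cells.

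**Figure D3:**
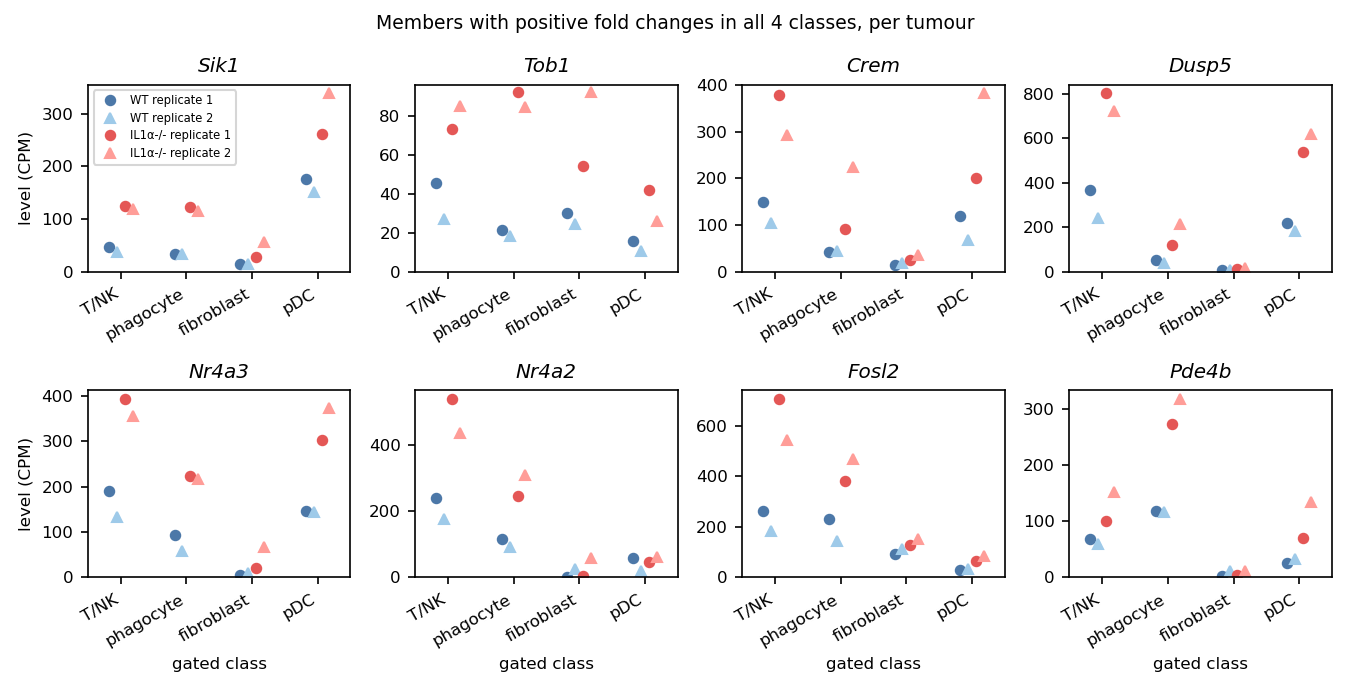
Level (CPM, each y axis from 0) of 8 members that were positive in all 4 classes, per tumour. Each point is 1 tumour, blue for WT and red for IL1α-/- hosts; Sik1 in phagocyte-like cells shows 32.5 and 33.3 CPM in WT against 123 and 116 CPM in IL1α-/- tumours.

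Some members moved differently between classes when the difference itself was tested. Between phagocyte-like and T/NK-like cells, 4 of 38 members had a higher fold change in phagocyte-like cells, against 0.197% of genes, and 0 a lower one, against 0.144%. At an unadjusted p under 0.05, 19 members differed in either direction, against 10.3% of genes. Myc had 39.1 and 33.7 against 12.2 and 10.8 CPM in T/NK-like cells and 10.7 and 12.7 against 12.3 and 29.1 CPM in phagocyte-like cells (difference 2.72, adjusted p = 0.0287). Egr2 had 39.3 and 75 against 61.4 and 155 CPM in phagocyte-like cells, where it did not pass, and fell in T/NK-like cells (difference 2.43, adjusted p = 0.0233). Klf2 had 178 and 122 against 261 and 312 CPM in phagocyte-like cells, and the difference from T/NK-like cells was 1.48 (adjusted p = 0.0233). Maff had 33.5 and 31.7 against 92.1 and 85.3 CPM in phagocyte-like and 48.6 and 42.7 against 35.8 and 45 CPM in T/NK-like cells (difference 1.52, adjusted p = 0.0305). Thus both IL1α-/- tumours were above both WT tumours for Klf2 and Maff in phagocyte-like cells, while the groups overlapped for Myc and Egr2 there. The T/NK-like sums mix unlike subsets. In CD8 T-like, CD4 T-like and NK-like cells Klf2 had -2.03, -0.017 and 0.51, and Maff -0.11, 1.93 and -0.038. The CD8 share also differed between the groups, and its part in these differences was not tested. None of the 4 differences passed without IL1α-/- replicate 2 (adjusted p from 0.119 to 0.619). Other members had opposite signs in these 2 classes with no difference that passed, among them Egr3 (-0.76 in T/NK-like and 0.58 in phagocyte-like cells), Dusp2 (-0.26 and 0.73) and Dusp6 (0.44 and -0.50). The value of Egr3 in phagocyte-like cells was -0.46 without IL1α-/- replicate 2.

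In fibroblast-like cells Myc had 78.9 and 26.6 CPM in WT and 72.2 and 152 CPM in IL1α-/- tumours, and its fold change differed from that in T/NK-like cells by 2.96 (adjusted p = 0.00717), the 1 member called higher against 0.108% of genes. None was lower, against 0.0666% of genes; at an unadjusted p under 0.05, 15 members differed in either direction, against 7.48% of genes. The groups overlapped in fibroblast-like cells, and without IL1α-/- replicate 2 the difference was 2.13 (adjusted p = 0.237).

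Between pDC-like and T/NK-like cells 5 members had a lower fold change in pDC-like cells, against 0.444% of genes, and 0 a higher one, against 0.523%. An unadjusted p under 0.05 was reached by 13 members in either direction, against 8.04% of genes. The fall of Jun was larger by -1.22 (adjusted p = 0.00408). Rgs1 differed by -2.02 (adjusted p = 3.78e-06) and Rgs2, with 167 and 66.6 against 97.9 and 110 CPM in pDC-like cells, by -1.29 (adjusted p = 0.00215). Btg2, a relative of Tob1, had 474 and 447 against 201 and 464 CPM in pDC-like and 534 and 413 against 486 and 678 CPM in T/NK-like cells (difference -0.82, adjusted p = 0.0419). Dusp6, an ERK phosphatase, differed by -3.13 (adjusted p = 0.032) on 21 and 11 UMIs in WT and 1 and 1 in IL1α-/- pDC-like cells. Of the 7 alternative settings run, the call held in 3 for Jun, 2 for Dusp6, 3 for Btg2, 6 for Rgs1 and 5 for Rgs2. None of the 5 passed without WT replicate 1, the tumour in which Rgs1 and Rgs2 were high in pDC-like cells; the difference for Rgs1 was then -0.88 (adjusted p = 0.841) and that for Jun -1.08 (adjusted p = 0.512).

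**Figure D4:**
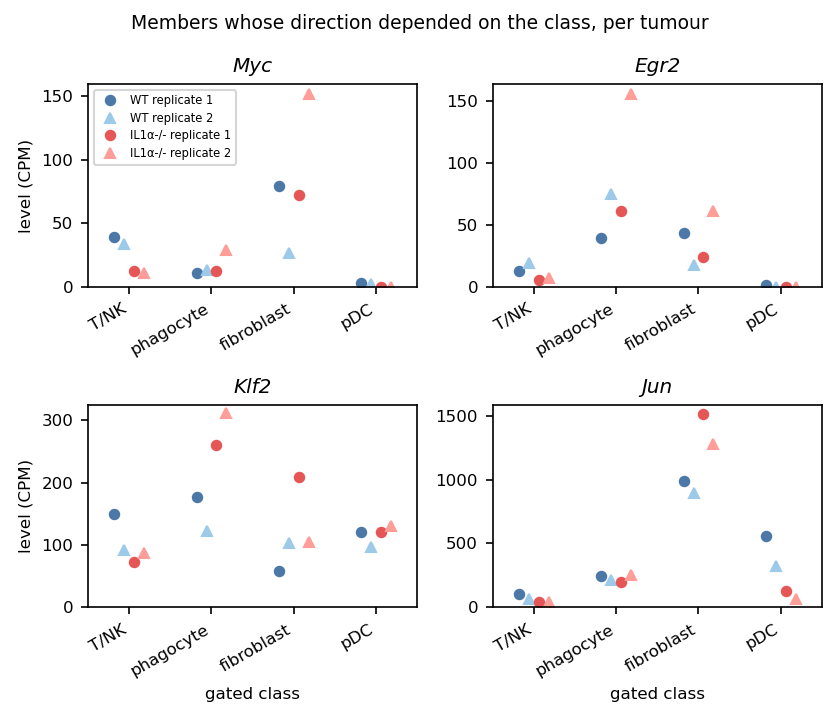
Level (CPM, each y axis from 0) of Myc, Egr2, Klf2 and Jun per tumour in the 4 main classes, blue for WT and red for IL1α-/- hosts. Myc is lower in both IL1α-/- tumours in T/NK-like cells (12.2 and 10.8 CPM) and not in phagocyte-like or fibroblast-like cells, and Jun is lower in both in pDC-like cells (126 and 60.9 CPM).

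Genes of related pathways were counted from 3 further lists. Of 26 tested serum and MAP kinase response genes outside the set, 8 rose and 0 fell in T/NK-like cells (edgeR), against 3.22% and 2.22% of all genes, with a median of 0.62. They included Ier5l (1.56), Csrnp1 (1.05), the phosphatase Dusp16 (1.25), the kinase Sgk1 (1.20) and Arc (1.80). In pDC-like cells 2 of 10 rose, Cebpb (2.28) and Csrnp1 (1.11), against 2.05% of genes. In phagocyte-like cells 0 of 22 and in fibroblast-like cells 0 of 26 passed, against 0.0785% and 0% of genes higher, with medians of 0.91 and 0.30. At an unadjusted p under 0.05, 17 were higher and 1 lower in phagocyte-like cells, against 7.84% and 5.58% of all genes. In fibroblast-like cells 5 were higher and 0 lower, against 2.73% and 2.28%. DESeq2 called 3 and 0 higher in these 2 classes. NK-like cells had 12 of 21 higher, CD4 T-like cells 6 of 20 and CD8 T-like cells 2 of 21, against 8.91%, 2.5% and 1.16% of genes.

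Genes of the cAMP pathway outside the set formed the next list. It included adenylate cyclases, protein kinase A subunits, CREB and its coactivators, receptors, phosphodiesterases and the kinases Sik2 and Sik3. In T/NK-like cells 0 of 23 and in phagocyte-like cells 0 of 23 passed (edgeR), with medians of 0.23 and 0.19, and 0 of 21 and 0 of 13 passed in fibroblast-like and pDC-like cells. Counts of 0 in lists of this size lie near the shares of all genes that rose, 3.22%, 0.0785%, 0% and 2.05%. At an unadjusted p under 0.05, 4, 1, 0 and 1 were higher and 2, 0, 1 and 0 lower in these 4 classes. The shares of all genes at that threshold were 7.84% higher and 5.58% lower in phagocyte-like cells and 2.73% and 2.28% in fibroblast-like cells. Those of T/NK-like and pDC-like cells are not given. DESeq2 called 1 higher and 1 lower in T/NK-like cells and 0 in the other 3. In NK-like cells 5 of 20 rose, against 8.91% of genes, among them the adenosine receptor Adora2a (1.17) and the phosphodiesterase Pde3b (0.84), and the prostaglandin receptor Ptger4 fell (-1.12). Adora2a also rose in CD4 T-like cells (1.38).

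Heat shock genes, which respond to protein damage, had few calls in the main classes, all of them lower. In T/NK-like cells 1 of 10 fell and in pDC-like cells 1 of 9, against 2.22% and 0.588% of genes, while 0 of 10 passed in phagocyte-like and 0 of 11 in fibroblast-like cells (edgeR). At an unadjusted p under 0.05, 2 were lower in phagocyte-like and 1 in fibroblast-like cells, against 5.58% and 2.28% of all genes. None was higher, against 7.84% and 2.73%, and DESeq2 called 0 in both classes. The median of the list was -0.22 in T/NK-like, -0.23 in phagocyte-like, -0.30 in fibroblast-like and -0.34 in pDC-like cells. Hspa1a had 109 and 15.4 CPM in WT and 4.65 and 3.21 CPM in IL1α-/- T/NK-like cells (-4.04, adjusted p = 0.041), and Hspa1b had 305 and 43.8 CPM against 9.33 and 0 CPM in pDC-like cells. In both cases WT replicate 1 stood far above the other 3 tumours. In NK-like cells 5 of 10 heat shock genes fell and 0 rose, against 7.74% and 8.91% of genes, among them Hspe1 (-0.73) and Hsp90ab1 (-0.72). Summed over the list, heat shock genes had 3802 and 4224 CPM in WT and 3090 and 3736 CPM in IL1α-/- T/NK-like cells, with WT replicate 2 the highest tumour, while the members' sum was lowest there.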

How the data were processed

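The deposited values are raw UMI counts per gene and barcode, made with Cell Ranger 3.1.0 per the file headers and without normalization by the authors, with reference features of human (GRCh38) and mouse (mm10); mouse genes were used. Each matrix held 6794880 barcodes. A barcode counted as a cell from 500 UMIs and 250 genes upward if its mitochondrial share was 20% or less, and the highest Scrublet scores (scanpy 1.11.5; 0.8% per 1000 cells) were removed as doublets; no test against empty droplets was made. A cell entered a class with at least 2 of its 8 markers and at least 2 times as many as for any other class. Of the called cells, 226 to 348 per tumour stayed in no class. A class was tested when every tumour had at least 20 cells; conventional dendritic-like cells fell short, so their planned tests were not run. Class names rest on these markers alone.

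Counts were summed per tumour and class and tested with edgeR 4.0.16 in R 4.3.3 (filterByExpr, TMM, quasi-likelihood test, Benjamini-Hochberg adjustment over all genes tested, threshold 0.05, both groups in 1 fit). CPM values use TMM-scaled totals. Differences between classes came from 1 model with tumour, class and the class by genotype term. Standard errors were derived from the F statistic. The test was checked on simulated counts with an assumed spread between tumours. It recovered 12.5%, 4.5% and 5.5% of 2-fold changes in T/NK-like, phagocyte-like and fibroblast-like cells, and 87.5%, 84.5% and 82% of 4-fold changes. For the difference between phagocyte-like and T/NK-like cells it recovered 38.5% of 4-fold changes. A missing call thus does not show that a gene was unchanged. The libraries differ in depth, so low genes are less certain in the IL1α-/- tumours. Near-identical genes such as Hspa1a and Hspa1b can exchange reads.

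The members, the lists and the tests were chosen with earlier results of these data known. Named are all members past the threshold in a comparison, at most 20 per comparison by smallest p, the 8 with the highest mean level, those of opposite sign in T/NK-like and phagocyte-like cells (both at least 0.5), and up to 5 genes per further list. In NK-like cells all members past the threshold are named. Alternatives were DESeq2 1.42.0, other size factors, no filter, a replicate block, stricter gates, depth and mitochondrial limits, thinning to 1000 UMIs, Leiden clusters, doublets kept (added after seeing the data) and each tumour left out. Gene positions are from GENCODE vM21 (GRCm38).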

Additional observations from a re-analysis of the deposited data

Results flagged for a closer look

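In 10 cases the effect of the host genotype differed between 2 classes by a test of the difference itself (edgeR, Benjamini-Hochberg adjusted p under 0.05). The T/NK-like cells used as the reference mix subsets in which the fold changes of Klf2 and Maff had different signs. Relative to T/NK-like cells, the log2 fold change in phagocyte-like cells was higher by 2.43 for Egr2 (adjusted p = 0.0233), by 1.48 for Klf2 (adjusted p = 0.0233), by 1.52 for Maff (adjusted p = 0.0305) and by 2.72 for Myc (adjusted p = 0.0287). In fibroblast-like cells that of Myc was higher by 2.96 (adjusted p = 0.00717). In pDC-like cells the difference was -1.22 for Jun (adjusted p = 0.00408), -3.13 for Dusp6 (adjusted p = 0.032), -0.82 for Btg2 (adjusted p = 0.0419), -2.02 for Rgs1 (adjusted p = 3.78e-06) and -1.29 for Rgs2 (adjusted p = 0.00215). Of 7 alternative settings, the call in pDC-like cells held in 3 for Jun, 2 for Dusp6, 3 for Btg2, 6 for Rgs1 and 5 for Rgs2. The 5 differences involving phagocyte-like or fibroblast-like cells did not pass without IL1α-/- replicate 2, and the 5 in pDC-like cells did not pass without WT replicate 1.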

How the results depend on the processing

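Of 1247 values of single members under alternative settings, 1029 kept their direction and their side of the threshold, 207 lost the call, 9 gained one and 2 changed sign. With every tumour left out in turn, Egr3 in phagocyte-like cells ranged from -0.46 (without IL1α-/- replicate 2) to 0.82, and Atf3 in CD4 T-like cells from -0.0027 (without IL1α-/- replicate 2) to 1.86. The median fold change of the members stayed positive in the 7 classes under each setting. Thinning to 1000 UMIs, which leaves fewer counts, removed the most calls (47 of 87 values), followed by leaving out WT replicate 2 (46 of 95) and WT replicate 1 (29 of 95).

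Without the filter on low counts, members called lower in T/NK-like cells numbered 5 and in pDC-like cells 2, members called higher were 18 in phagocyte-like, 8 in fibroblast-like and 13 in CD8 T-like cells, and CD8 T-like cells had 4 lower. Differences from T/NK-like cells were then 7 higher and 3 lower for phagocyte-like and 7 higher and 1 lower for fibroblast-like cells. All genes called rose from 598 to 1713 in T/NK-like, from 9 to 524 in phagocyte-like, from 0 to 205 in fibroblast-like, from 208 to 565 in CD8 T-like and from 269 to 633 in CD4 T-like cells. DESeq2 called 14 members higher in phagocyte-like, 1 in fibroblast-like and 4 in pDC-like cells, and 1 lower in CD8 T-like and 1 in NK-like cells; all genes called were 90 in phagocyte-like, 8 in fibroblast-like, 47 in pDC-like, 139 in CD4 T-like and 493 in NK-like cells. Thinned cells gave 0 members higher in phagocyte-like, 2 in pDC-like, 5 in CD8 T-like, 2 in CD4 T-like and 8 in NK-like cells, 1 lower in CD8 T-like and 1 in NK-like cells, and differences of 2 higher and 1 lower (phagocyte-like), 4 higher (fibroblast-like) and 1 lower (pDC-like). A minimum of 1000 UMIs per cell gave 5 higher in pDC-like cells, 3 markers per cell gave 5 higher in CD8 T-like cells, and keeping doublets gave 2 lower in pDC-like cells. The cause of these changes was not tested.

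With the replicate number as a block, members called higher were 1 in fibroblast-like and 14 in pDC-like cells, and members called lower 2 in pDC-like and 1 in CD8 T-like cells; all genes called were 1674 in T/NK-like, 18 in phagocyte-like, 8 in fibroblast-like, 323 in pDC-like and 589 in CD4 T-like cells. Deviations of tumours with the same number correlated across genes at 0.156 in T/NK-like, 0.024 in phagocyte-like, 0.415 in fibroblast-like and 0.0743 in pDC-like cells, and the labels do not say that the number marks the collection day.

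With each tumour left out, members called higher ranged from 2 to 15 in T/NK-like, 0 to 13 in phagocyte-like, 4 to 10 in pDC-like, 0 to 14 in CD8 T-like, 7 to 21 in CD4 T-like and 9 to 20 in NK-like cells. Members called lower ranged from 2 to 5 in T/NK-like, 1 to 3 in pDC-like, 0 to 4 in CD8 T-like and 1 to 4 in NK-like cells. Differences from T/NK-like cells ranged from 0 to 7 higher and 0 to 1 lower (phagocyte-like), 0 to 7 higher and 0 to 2 lower (fibroblast-like), and 0 to 2 higher and 0 to 3 lower (pDC-like). In each class and each difference the number of all genes called varied with the tumour left out as well. These ranges are thus not results about the members alone.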

Other observations

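Some classes had too few cells for a test in at least 1 tumour. Neutrophil-like cells (42, 63, 5 and 9 cells) gave 3.96% and 3.64% of their UMIs to the 39 members in WT and 3.55% and 4.02% in IL1α-/- tumours. Mast/basophil-like cells (4, 8, 2 and 6 cells) gave 6.68% and 5.35% against 5.20% and 6.85%, the highest shares of any class. The groups overlapped in both classes. B/plasma-like cells (19, 15, 17 and 11 cells) gave 0.984% and 1.06% against 0.931% and 0.484%, so that both IL1α-/- tumours were below both WT tumours. Tumour epithelial-like cells (373, 226, 26 and 3 cells) gave 0.836% and 0.580% against 0.687% and 0.339%, and the groups overlapped. In the 9, 19, 3 and 9 conventional dendritic-like cells the shares were 0.650% and 0.525% against 1.41% and 0.895%, so that both IL1α-/- tumours were above both WT tumours. Endothelial-like cells (15, 8, 0 and 9 cells) gave 0.372% and 0.489% in WT and 0.949% in IL1α-/- replicate 2.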
